A study of Mus musculus with 3 samples.

Results

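Fibroblasts were a rare by-product of the islet preparation: 66 of 28374 kept barcodes (0.233%) met the rule for them, with 38 from WT, 6 from ASF-KO and 22 from SC35-KO by label. A barcode was kept with at least 500 genes, at least 1000 UMIs (unique molecular identifiers, 1 per captured RNA molecule) and at most 20% mitochondrially encoded UMIs. A kept barcode was a fibroblast when at least 3 of 7 genes were detected (Col1a1, Col1a2, Col3a1, Dcn, Lum, Pdgfra and Dpt), with at most 1 UMI in Rgs5, Cspg4 and Higd1b together and with Pecam1 at 0. Insulin genes (Ins1 and Ins2) had to hold under 20% of its UMIs, and Gcg, Sst and Ppy each under 5%. The cells were thus chosen by these UMI counts, so their high collagen and low pericyte, endothelial and hormone levels are a description and support nothing.

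The study compared islets of WT mice with ASF-KO and with SC35-KO mice, all 9 months old, with 1 library of each. ASF is an older name of the splicing factor SRSF1 and SC35 of SRSF2, members of the SR family of RNA-binding proteins that act on splice site choice. The labels do not give a Cre driver, the exons removed, the cells in which a gene was deleted, the strain, the sex or the number of mice behind a library. Tissue was digested with collagenase P given by way of the bile duct; islets were then collected under a stereomicroscope, trypsinised and sieved, so only fibroblasts that came along with picked islets were counted. Because each group is 1 library, no test between genotypes was possible: the intervals below cover counting error only, and mouse, dissection and library cannot be told apart from genotype. Where 3 values follow each other, they are in the order WT, ASF-KO and SC35-KO, the last 2 by their labels.

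Fibroblasts build the interstitial matrix. They secrete fibrillar procollagens, which are trimmed, assembled with small leucine-rich proteoglycans such as decorin and lumican, and crosslinked by lysyl oxidases. In the pancreas they lie around ducts, vessels and islets, and differ from pericytes, which sit on capillaries and carry Rgs5, Notch3 and Pdgfrb. An adventitial kind marked by Pi16 and Dpp4 and a parenchymal kind marked by Col15a1 are often told apart across organs.

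The promoters of the type I and type III collagen genes Col1a2 and Col3a1 are shown because these were the most abundant of the collagens listed and had their highest level in WT. Each line gives the 150 bases before the RefSeq start (GRCm38.p6, plus strand), 5′ to 3′, with the match to CCAAT or TATAAA in capitals.
Col1a2, chr6:4505468-4505617: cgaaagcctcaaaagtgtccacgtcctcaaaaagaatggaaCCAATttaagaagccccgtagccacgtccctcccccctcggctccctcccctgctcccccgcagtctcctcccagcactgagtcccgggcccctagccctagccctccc
Col3a1, chr1:45311388-45311537: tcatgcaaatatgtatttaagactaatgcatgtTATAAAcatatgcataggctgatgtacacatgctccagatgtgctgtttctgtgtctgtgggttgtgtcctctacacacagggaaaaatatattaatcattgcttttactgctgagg
The CCAAT match of Col1a2 begins 109 bases before the start and the TATAAA match of Col3a1 117 bases before it, both on the gene's strand. Among 27025 genes, 25.3% held CCAAT and 8.08% held TATAAA in the same window on either strand. A match is only a run of letters and says nothing of a factor bound there. GENCODE M21 on GRCm38 places the protein-coding gene Col1a2 at chr6:4504814-4541544, so the window shown lies inside it, and Col3a1 at chr1:45311538-45349706, just after its window. Col1a1 lies at chr11:94936224-94953042, Dcn at chr10:97479609-97518143, Pdgfra at chr5:75152292-75198215, Cilp at chr9:65265180-65280605 and Ccl11 at chr11:82057823-82062955, all on the plus strand. Mgp lies on the minus strand at chr6:136872435-136875823.

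Genes that the rule did not use also set these cells apart from pericytes, as a description. Levels are given as CPM, counts per 1000000 UMIs of the cells summed. Smoc2, a matricellular protein, was at 559 CPM in fibroblasts over the 3 libraries and had 0 UMIs in pericyte-like barcodes, which allows up to 6.44 CPM there. Igfbp6, a binding protein of insulin-like growth factors, was at 1383 CPM in fibroblasts and 2.15 in pericyte-like barcodes. The 190 pericyte-like barcodes had at least 3 of 7 pericyte genes (Rgs5, Cspg4, Higd1b, Kcnj8, Abcc9, Notch3 and Pdgfrb). The receptor Notch3, at 1077 CPM there and 58.6 in fibroblasts, was thus part of that choice. The smooth muscle actin Acta2, used by neither choice, was at 2156 CPM in pericyte-like barcodes and 27.0 in fibroblasts. Mgp, matrix Gla protein, was high in both, at 7963 CPM in fibroblasts and 10038 in pericyte-like barcodes. Of 5266 genes with at least 20 UMIs over the 2 classes, 526 (9.99%) were higher in fibroblasts past 2-fold with a counting interval of the ratio that left out 1, and 954 (18.1%) lower. Reading these counts as a result is barred by the rule, which used the same cells' UMIs.

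**Figure D1:**
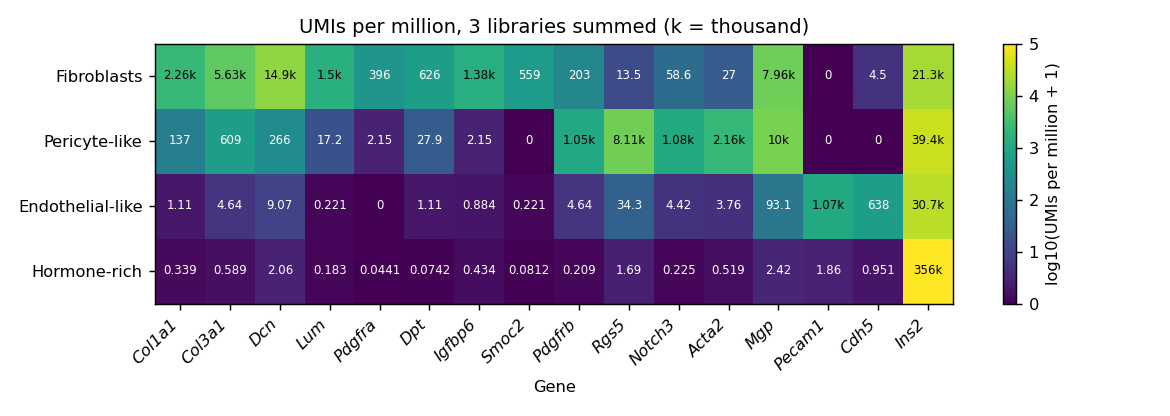
Levels of 16 genes (columns) in 4 classes of barcodes (rows), in UMIs per 1000000 summed over the 3 libraries; colour is log10 of the level plus 1 and each cell prints the level. Dcn reached 14913 in fibroblasts and 266 in pericyte-like barcodes, and Pecam1 is 0 in both by rule.

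The genes most concentrated in fibroblasts, among those with at least 100 UMIs there, were led by Svep1, a large adhesion protein, at 450.4 CPM against 0.0563 in all other kept barcodes. Lum (lumican) followed at 1499.9 against 0.198, Dpep1, a membrane dipeptidase, at 919 against 0.133, and Smoc2 at 559 against 0.0901. Dcn, Clec3b (tetranectin), Dpt (dermatopontin), Mfap5, Ogn (osteoglycin), Col3a1, Col1a1, Crispld2, Htra3, Penk and Cpxm1 completed the 15. The rule itself used Lum, Dcn, Dpt, Col3a1 and Col1a1, so their place here is a description. Most of the 15 encode secreted matrix proteins. Penk encodes the opioid precursor proenkephalin and stood at 767, 1432 and 1153 CPM, in 25 of 38, 5 of 6 and 15 of 22 fibroblasts. It was not called for either KO library.

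Depth differed between the libraries. The fibroblasts held 153879, 19557 and 48579 UMIs in all, with medians of 3486, 2954 and 1844 UMIs per cell. Whole libraries, at 148320213 to 154099078 UMIs, were alike. All 7 rule genes were detected in 12, 2 and 6 fibroblasts, and exactly 3 in 2, 0 and 2. A further 3, 1 and 2 barcodes met every other limit with 2 of the 7 genes, and 1 ASF-KO barcode missed the rule with 2 UMIs in Rgs5, Cspg4 and Higd1b. The highest insulin share of a fibroblast was 5.74%, 10.3% and 14.6%, and the lowest past the limit in SC35-KO was 22.2%. Between 32 and 45 barcode sequences were shared by 2 libraries (0.312% to 0.419% of the smaller), none of them a fibroblast.

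Some fibroblast barcodes also held RNA of other cells. WT cell 21 had the most UMIs (17673) and 138 UMIs of the immune list, and WT cell 2 had 11. WT cell 31 carried 15 UMIs of the Schwann list, with Dcn at 0. SC35-KO cell 19 carried 7 UMIs of the mesothelial list and was the only fibroblast that Scrublet, a doublet caller, marked. In all, 4, 2 and 1 fibroblasts had at least 2 UMIs of an immune, endothelial, ductal, Schwann or mesothelial list. Immune genes made up 0.0975%, 0.00511% and 0.00206% of fibroblast UMIs, and pericyte genes 0.0312%, 0.0460% and 0.0371%. Cspg4 was at 0 in every fibroblast and Pecam1 by rule.

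RNA of islet hormone and granule genes made up 2.09%, 6.79% and 6.01% of fibroblast UMIs. Whether it was free RNA or came from endocrine cells under the same barcode was not tested. The rule genes were in turn seen in few hormone-rich barcodes, and the source of that RNA was not tested. With every barcode thinned to 1000 UMIs, Col1a2 was seen in 86.8%, 83.3% and 81.8% of fibroblasts and in 0.546%, 0.547% and 0.389% of hormone-rich barcodes. Unthinned, the shares of Col1a2 in hormone-rich barcodes were 3.64%, 4.13% and 2.82%, at medians of 18237, 20856 and 10961 UMIs. Col1a2 had the highest such share of the rule genes. Dcn, more abundant in fibroblasts, was seen after thinning in 97.4%, 100% and 100% of them. In hormone-rich barcodes it was then seen in 0.260%, 0% and 0.0741%.

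Srsf1 and Srsf2, the genes behind the labels, gave too few UMIs in fibroblasts to check them. Srsf1 had 5, 0 and 2 UMIs. A count of 0 at the ASF-KO depth allows up to 153 CPM, above the WT level of 32.5 CPM. Srsf2 had 5, 6 and 5 UMIs, in 4 fibroblasts of each library, or 32.5, 307 and 103 CPM, and the SC35-KO ratio to WT was 3.17 (0.729 to 13.8). A 3′ tag need not lie in a deleted part, so these counts check nothing, and the libraries are named by their labels. Of 3 SR family genes measured for SC35-KO, Srsf5 was higher, at 71.5, 307 and 247 CPM, though not without 1 cell (2.73 (0.998 to 7.24)).

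Fibroblasts were a smaller share of kept barcodes in both KO libraries. The shares were 0.409% (Clopper-Pearson interval 0.290 to 0.561), 0.0811% (0.0298 to 0.176) and 0.188% (0.118 to 0.285). The differences from WT were -0.328 points (Newcombe interval -0.486 to -0.182) and -0.221 points (-0.386 to -0.0738). Of the non-endocrine barcodes alone, the shares were 2.39% (1.70 to 3.27), 0.737% (0.271 to 1.60) and 2.46% (1.55 to 3.70). On that denominator ASF-KO differed from WT by -1.65 points (-2.61 to -0.578) and SC35-KO by 0.0694 points (-1.14 to 1.46). So the ASF-KO library was lower on both denominators and the SC35-KO library on the first alone. There were 0.392, 0.143 and 0.431 fibroblasts per pericyte-like barcode. The cell filter removed 9.53%, 40.8% and 16.1% of deposited barcodes. Without it, fibroblasts were 0.458%, 0.0560% and 0.187% of all barcodes.

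**Figure D2:**
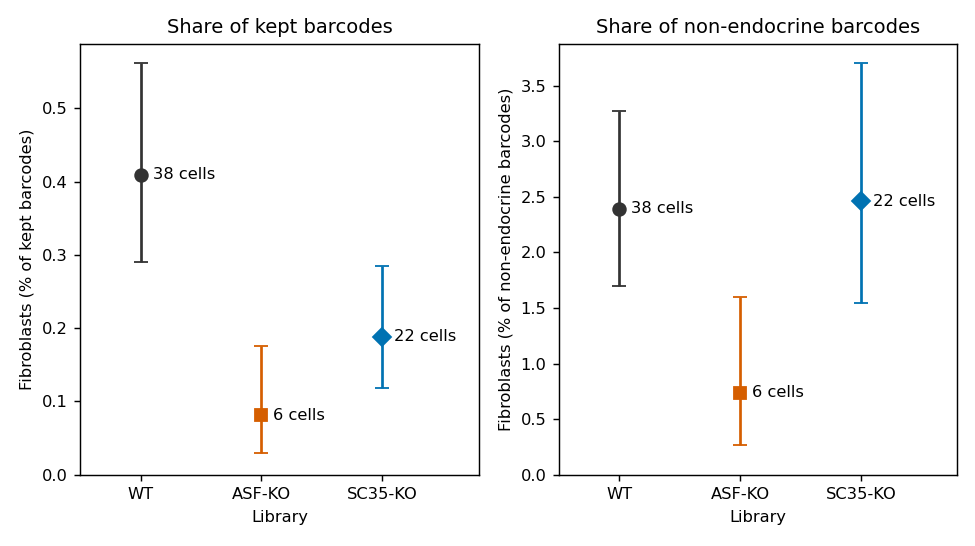
Fibroblasts as a percent of all kept barcodes (left) and of non-endocrine barcodes (right) in the 3 libraries; points are shares and bars 95% Clopper-Pearson intervals. On the right, WT (2.39%) and SC35-KO (2.46%) overlap while ASF-KO lies at 0.737%.

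Levels between libraries were compared over the summed UMIs of fibroblasts. A gene counted as measured with at least 20 UMIs over both sums, and as higher or lower than in WT when past 2-fold with a counting interval that left out 1. Labelled SC35-KO, 88 of 1358 measured genes were higher (6.48%) and 70 lower (5.15%), with a median log2 ratio of 0.05. Labelled ASF-KO, with 6 cells, 81 of 1144 were higher (7.08%) and 93 lower (8.13%), with a median of -0.10. Either way, 15.2% of measured genes were called for ASF-KO and 11.6% for SC35-KO. Few or 0 calls in a short list are therefore not read as a trait of that list. Both comparisons use the same WT fibroblasts. Cells varied more than counting error gives, so these intervals are too narrow for a difference between libraries. Calls were therefore also made without 1 cell, the one with the most UMIs of the gene, left out of the KO library for a higher call and of WT for a lower one. A gene under 20 UMIs was then no longer called. Over all gene lists but the sex-linked one, with each gene counted once, 10 of 35 higher and 15 of 25 lower calls for ASF-KO were left without 1 cell, and 9 of 24 higher and 4 of 19 lower calls for SC35-KO.

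Type I and III collagens had their highest level in WT. Col3a1, the type III chain, was at 6544, 2659 and 3932 CPM. Col1a2, a type I chain, was at 5816, 2812 and 3685 CPM, and its partner Col1a1 at 2677, 1329 and 1317 CPM. The WT Poisson interval of each met neither KO interval. Each is a rule gene, as are Dcn, Lum and Pdgfra below, so the choice of cells bears on these levels. Depth per cell differed between the libraries, and the part of the rule in the differences was not tested. Single cells weighed on the sums: WT cell 10 held 215 of 1007 Col3a1 UMIs, ASF-KO cell 4 held 36 of 52 and SC35-KO cell 22 held 57 of 191.

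Of 6 fibrillar collagens measured for SC35-KO, 3 were lower and 0 higher (Col1a1, Col5a1 and Col5a2), with a median log2 ratio of -0.88 against 0.05 over all genes. The ratio of Col1a1 was 0.492 (0.372 to 0.642) and that of Col5a1, a chain that regulates fibril diameter, 0.407 (0.179 to 0.818). Col1a2 and Col3a1 had ratios of 0.634 (0.537 to 0.745) and 0.601 (0.512 to 0.702), short of 2-fold. For ASF-KO 3 of 6 were lower (Col1a1, Col1a2 and Col3a1), with a median of -0.89. Only 1 of 6 was lower for SC35-KO without the cell richest in each gene, without the Scrublet-marked cell or by the mean of cell CPM, with medians of -0.77, -0.77 and -0.74. For ASF-KO 1 of 6 was lower by the mean of cell CPM, without cells carrying other markers and under both other scalings, with medians from -0.83 to -0.79. Without WT cell 10 alone, which held the most WT UMIs of each of the called genes, 0 of the 3 were lower for SC35-KO and 1 of the 3 for ASF-KO (Col3a1). Col1a1 then stood at 0.557 (0.419 to 0.729) for SC35-KO and 0.562 (0.362 to 0.838) for ASF-KO, short of 2-fold. So did Col1a2 for ASF-KO, at 0.523 (0.390 to 0.687). For SC35-KO the intervals of Col5a1 (0.218 to 1.03) and Col5a2 (0.431 to 1.56) then held 1. In pericyte-like barcodes Col3a1 stood at 544, 573 and 817 CPM and Col1a1 at 148, 146 and 99.6 CPM.

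Other collagens and basement membrane genes were mostly not called, nor were most of all measured genes. The other collagens summed to 4042, 3937 and 3376 CPM, with a median log2 ratio of -0.05 for ASF-KO and -0.21 for SC35-KO. Of 5 measured for SC35-KO, Col8a1 was lower (266, 205 and 41.2 CPM), also without 1 cell, and 0 were higher. Col6a1 of the beaded microfibrils was at 1326, 1278 and 1399.8 CPM. Of 10 basement membrane genes measured for SC35-KO, 0 were higher and 0 lower, with a median log2 ratio of 0.21. For ASF-KO 3 of 9 were higher: the laminin chains Lamc1 (156, 716 and 268 CPM) and Lamb1 (208, 818 and 288 CPM), and nidogen, Nid1 (630.4, 1381 and 782 CPM). Without 1 cell Nid1 was not called, with a ratio of 1.72 (0.948 to 2.94).

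Proteoglycans differed among themselves. Decorin, which binds collagen fibrils and spaces them, led the matrix genes, with Dcn at 14622, 10226 and 17724 CPM. Its ratio to WT was 1.21 (1.12 to 1.31) for SC35-KO, the other side of 1 from the collagens, and 0.699 (0.602 to 0.809) for ASF-KO. Lumican, Lum, was at 1449, 562 and 2038 CPM, in the same order. Biglycan, Bgn, was at 3425, 972 and 2635 CPM, with an ASF-KO ratio of 0.284 (0.169 to 0.447). Of 9 measured for SC35-KO, 1 was higher and 0 lower: asporin, Aspn, at 97.5, 358 and 268 CPM, with 11 of 13 SC35-KO UMIs in cell 22. For ASF-KO 1 of 9 was higher (Aspn, with 5 of 7 UMIs in cell 4) and 2 lower (Lum and Bgn). Without 1 cell Aspn was called for neither library, while Lum and Bgn were still lower.

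Elastic fibre genes stood on both sides of WT. Mfap5, a microfibril protein, was at 942, 307 and 309 CPM and was detected in 26 of 38, 3 of 6 and 4 of 22 fibroblasts. Fibulin 2, Fbln2, was at 565, 562 and 268 CPM. Fibulin 5, Fbln5, which guides elastin assembly, had its lowest level in WT at 195, 358 and 453 CPM, as did the latent TGF-beta binding protein Ltbp1 at 123, 307 and 309 CPM. Of 14 measured for SC35-KO, 3 were higher (Fbln5, Ltbp1 and Efemp1) and 2 lower (Mfap5 and Fbln2), with a median log2 ratio of -0.22. Efemp1 (fibulin 3) was at 84.5, 409 and 432 CPM, and SC35-KO cell 19 held 14 of its 21 UMIs there. For ASF-KO 2 of 14 were higher (Efemp1 and Emilin1) and Mfap5 lower, with 7 of 8 Efemp1 UMIs in cell 5. Without 1 cell 0 of these 2 were higher for ASF-KO and only Fbln5 of the 3 for SC35-KO, while Mfap5 was still lower in both and Fbln2 was not called.

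The matrix glycoproteins Mgp and Sparc and the cartilage protein Cilp were highest in WT. The glycoprotein list summed to 34722, 27918 and 27522 CPM, yet its median log2 ratio lay above 0, at 0.17 for ASF-KO (-0.10 over all genes) and 0.33 for SC35-KO (0.05 over all genes). Mgp, an inhibitor of calcification, was at 9683 (9197 to 10187), 2352 (1722 to 3137) and 4776 (4181 to 5431) CPM, in 31 of 38, 2 of 6 and 16 of 22 fibroblasts. Sparc, a collagen-binding protein, was at 7727, 3375 and 4199 CPM. Cilp was at 1859, 665 and 309 CPM, in 28 of 38, 2 of 6 and 8 of 22 fibroblasts. Its SC35-KO ratio was 0.166 (0.0918 to 0.279), and its log2 ratio, -2.59, ran from -2.72 to -2.35 over the alternatives.

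Gelsolin, Gsn, an actin-severing protein that is also secreted, did not share that order, at 6466, 10891 and 6402 CPM. Fibronectin, Fn1, gave 1, 13 and 1 UMIs, 9 of the 13 in ASF-KO cell 5. Of 15 glycoproteins measured for SC35-KO, 2 were higher (Svep1 and Thbs1) and 2 lower (Mgp and Postn). For ASF-KO 2 of 14 were higher (Tnxb and Ccn2) and 2 lower (Sparc and Mgp). Without 1 cell 0 of the 2 were higher for either library. SC35-KO cell 10 held 15 of 34 UMIs of Svep1, whose ratio was 2.03 (1.28 to 3.18) with it and 1.23 (0.688 to 2.11) without it, and Thbs1 had fewer than 20 UMIs left. Sparc and Mgp were still lower for ASF-KO and Postn for SC35-KO, while Mgp stood at 0.551 (0.477 to 0.634) for SC35-KO without WT cell 22.

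**Figure D3:**
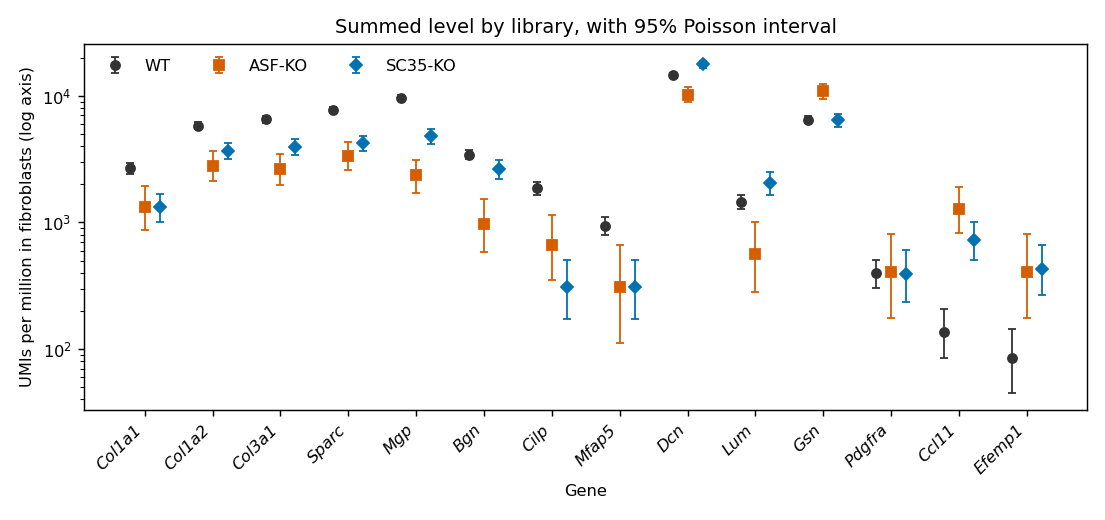
Summed level of 14 fibroblast genes in each library, in UMIs per 1000000 on a log axis; points are levels and bars 95% Poisson intervals. Col1a1, Col1a2, Col3a1, Sparc, Mgp, Bgn, Cilp and Mfap5 stand highest in WT, Pdgfra lies at 396, 409 and 391, and Ccl11 and Efemp1 are lowest in WT, with 7 of 8 and 14 of 21 KO UMIs of Efemp1 in 1 cell each.

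Matrix proteases and inhibitors were mostly not called, nor were most of all measured genes. Of 16 measured for SC35-KO, 1 was higher and 2 lower. Adamts5, an aggrecan-cleaving protease, was the higher one, at 338, 614 and 906 CPM, with 19 of 44 SC35-KO UMIs in cell 6. Timp1, an inhibitor of metalloproteases, had 24, 0 and 0 UMIs, in 13 WT fibroblasts, and Mmp3 (stromelysin) 23, 0 and 1 UMIs. The abundant inhibitor Cst3 (cystatin C) was at 4653, 4295 and 4735 CPM. For ASF-KO 0 of 15 were higher and 2 lower (Serpinf1 and Ctsl), both also without 1 cell. For SC35-KO 0 of the 3 calls were left without 1 cell, as Adamts5 stood at 1.66 (0.988 to 2.73) and Timp1 and Mmp3 had fewer than 20 UMIs. Of 9 collagen-modifying genes measured for SC35-KO, led by the procollagen enhancer Pcolce (786, 511 and 535 CPM) and the collagen chaperone Serpinh1 (539, 358 and 556 CPM), 0 were higher and 0 lower, with a median log2 ratio of -0.34.

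Fibroblasts of 1 library differed among themselves. After thinning to 1000 UMIs per cell, the variance over the mean among WT fibroblasts, near 1 for counting error alone, was 20.5 for the nuclear RNA Malat1, 16.7 for Mgp, 13.5 for the lipoprotein Apoe, 12.9 for Col3a1 and 9.63 for Sparc. Dcn, Gsn, Apod, Vtn and C3 were the other 5 of the 10 named for the highest ratio. Mgp ran from 0 to 53 UMIs per 1000 (median 10), from 0 to 13 (median 0) and from 0 to 24 (median 2). The libraries therefore overlapped cell by cell.

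The sum of Col1a1, Col1a2 and Col3a1 in a cell was compared with Dcn, a choice made after the values were seen. The sum ran from 0 to 57 UMIs per 1000 (median 9), from 0 to 27 (median 4) and from 1 to 29 (median 6). Dcn ran from 0 to 52 (median 13.5), from 6 to 16 (median 12.5) and from 2 to 32 (median 15.5). The 3 collagens outnumbered Dcn in 14 of 38, 1 of 6 and 4 of 22 fibroblasts. Over the 38 WT fibroblasts, which share 1 library, the sum had a Pearson r of -0.275 with Dcn (Spearman -0.223) and of 0.0539 with total UMIs. Outside the 3 collagens, the genes most alike to the sum were Sparc (r of 0.848), Col6a2 (0.634), Col4a1 (0.597), Col4a2 (0.594), Mgp (0.568), Bgn (0.563) and Cilp (0.528). These correlations over cells carry no test.

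**Figure D4:**
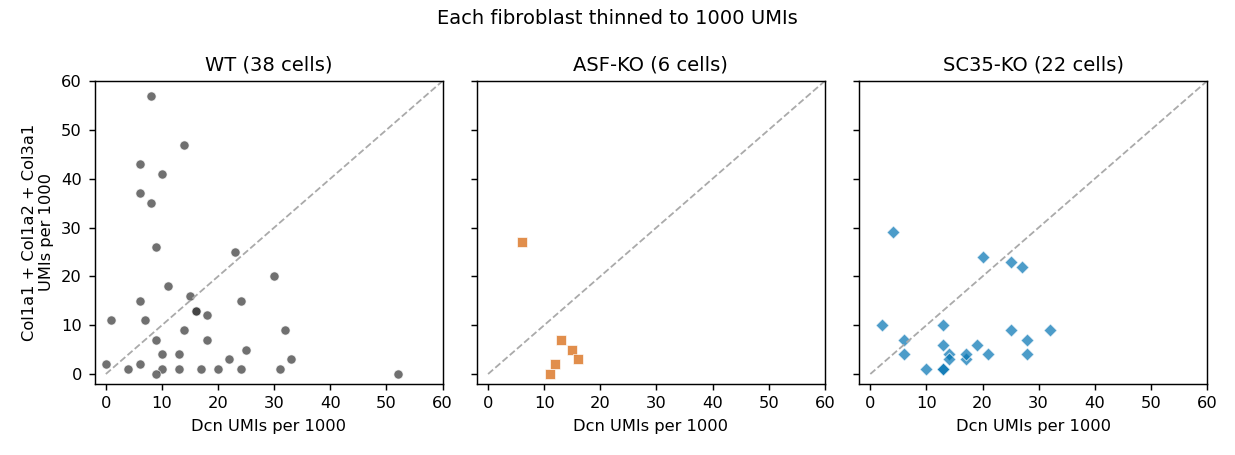
Each point is 1 fibroblast thinned to 1000 UMIs, with Dcn on the x axis and the sum of Col1a1, Col1a2 and Col3a1 on the y axis; the dashed line marks equal counts. WT reaches 57 collagen UMIs, SC35-KO 29 and ASF-KO 27, and 14, 4 and 1 cells lie above the line.

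The Pi16 and Col15a1 kinds did not form exclusive sets. Of 66 fibroblasts, 36 had Col15a1 without Pi16, 4 had Pi16 without Col15a1, 8 had both and 18 neither. Dpp4, a membrane peptidase, was found in 2 cells, both without Col15a1. Of 5 adventitial genes measured for ASF-KO, 4 were higher (Clec3b, Ly6a, Pi16 and Cd34) and Mfap5 was lower. ASF-KO cell 5 held 72 of the 110 UMIs of this list: 24 of 24 of Pi16, 17 of 36 of Clec3b, 8 of 16 of Ly6a and 6 of 10 of Cd34. Without it 1 of the 4, Clec3b, was still higher, with a ratio of 2.34 (1.34 to 3.88) in place of 3.33 (2.19 to 4.98). Clec3b was in 24 of 38, 6 of 6 and 14 of 22 fibroblasts. Of 5 Col15a1-type genes, 0 were higher and 0 lower for either KO library, and Col15a1 itself was at 461, 614 and 597 CPM. Contractile genes were near 0: Acta2 had 5, 1 and 0 UMIs and Tagln, another smooth muscle gene, 8, 2 and 0.

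The chemokine Ccl11 was higher in both KO libraries, and Ccl19 also, with 1 cell weighing on its ASF-KO call. Ccl11 (eotaxin), which draws eosinophils, was at 136 (84.5 to 209), 1278 (827 to 1887) and 720.5 (502 to 1002) CPM. The ratio was 9.37 (5.03 to 17.6) for ASF-KO and 5.28 (2.99 to 9.54) for SC35-KO. After thinning it was seen in 7.89%, 66.7% and 36.4% of fibroblasts, and unthinned in 13 of 38, 4 of 6 and 11 of 22. In pericyte-like barcodes it stood at 114, 252 and 119 CPM. Without 1 cell its ratio was 6.44 (3.03 to 13.3) for ASF-KO and 3.78 for SC35-KO, and it was still called for both. The lymphoid chemokine Ccl19 was at 175, 511 and 453 CPM, in 12 of 38, 2 of 6 and 8 of 22 fibroblasts. ASF-KO cell 4 held 6 of 10 of its UMIs there, and without it the ratio was 1.37 (0.349 to 3.94), in place of 2.91 (1.26 to 6.21). For SC35-KO Ccl19 was still called without 1 cell, at 2.05 (1.05 to 3.91). Of 5 chemokines and cytokines measured, Ccl11 and Ccl19 were higher and 0 lower for either library. Cxcl12, a ligand of CXCR4, was at 526, 409 and 844 CPM, but WT cell 5 held 67 of its 81 WT UMIs.

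Other named genes higher for SC35-KO had fewer UMIs. Thbs1 (thrombospondin 1) had a ratio of 7.24 (2.82 to 20.8), Mgst1, a microsomal glutathione transferase, of 5.20 (2.57 to 10.9), and Gpc3, a cell-surface proteoglycan, of 4.43 (2.18 to 9.25). Ppp1r2, an inhibitor of protein phosphatase 1, had 4.05 (2.09 to 7.96), with 11 of 23 UMIs in cell 6. Zfp36l1, an RNA-decay factor, had 3.35 (2.04 to 5.53). Mgst1 was in 8 of 38, 4 of 6 and 11 of 22 fibroblasts and Gpc3 in 9 of 38, 2 of 6 and 11 of 22. Without 1 cell 7 of the 10 named higher genes were still called, and Cavin2, Efemp1 and Thbs1 were not.

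A single cell weighed on the remaining 4. SC35-KO cell 19, the Scrublet-marked one with mesothelial UMIs, held 14 of 18 UMIs of the caveolar protein Cavin2, 14 of 27 of Igfbp5, 14 of 21 of Efemp1 and 9 of 22 of the immediate early gene Fosb. Their log2 ratios were 3.25, 2.51, 2.36 and 1.95, and 1.21, 1.58, 0.90 and 1.32 without that cell. Igfbp5 was seen in only 4 SC35-KO fibroblasts, and another of them held 10 of its 27 UMIs. Wt1, a mesothelial transcription factor, had 7 UMIs labelled SC35-KO, all of them in that cell, and 1 in each other library.

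Of the named genes lower for SC35-KO, the 4 immune ones came almost wholly from 1 WT barcode. WT cell 21 held 180 of 184 UMIs of Cd74, 56 of 58 of H2-Ab1, 50 of 52 of H2-Aa and 45 of 48 of the immunoglobulin light chain Igkc, and 22 of 22 of the B cell gene Cd79a. Without cells carrying other markers these 4 named genes had too few UMIs for a ratio. The antiproliferative factor Btg1 had 36, 4 and 1 UMIs, in 16 of 38, 2 of 6 and 1 of 22 fibroblasts. The secreted carboxypeptidase-like protein Cpxm1 was at 682, 153 and 185 CPM, with a SC35-KO ratio of 0.272 (0.121 to 0.535). Without 1 cell 4 of the 10 named lower genes were still called (Btg1, Cilp, Cpxm1 and Zc3h15). Basp1 had 24, 2 and 0 UMIs, 11 of them in WT cell 21, and Zc3h15 had 23, 0 and 0, spread over 15 WT cells.

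**Figure D5:**
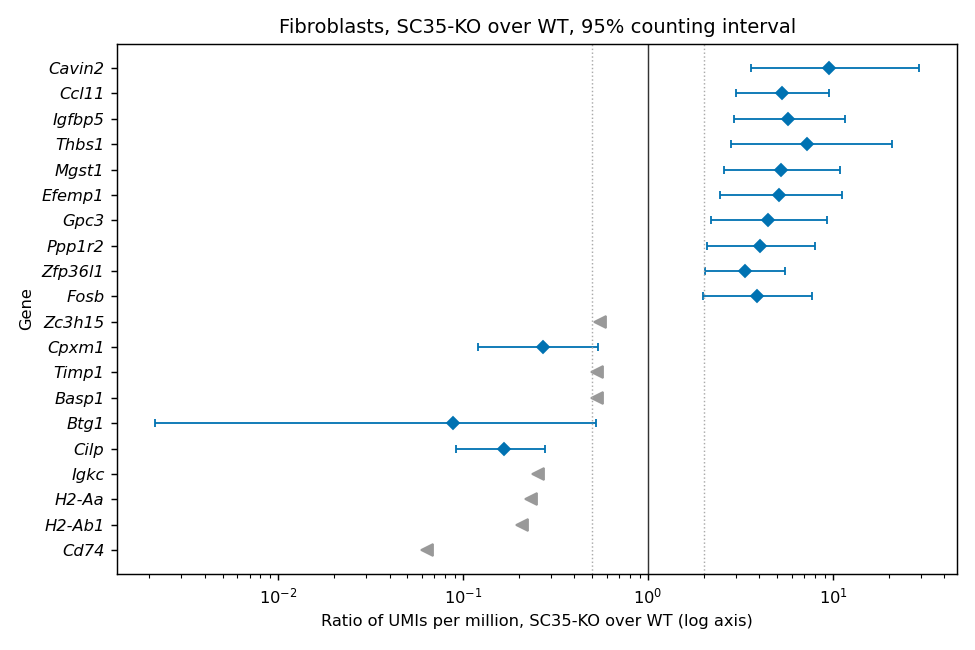
Ratio of the level in fibroblasts labelled SC35-KO to WT for the 20 genes named by rule, on a log axis; diamonds are ratios with 95% counting intervals, grey triangles the upper end of the interval where the KO sum was 0, and dotted lines 2-fold. Ccl11 lies at 5.28 and Cilp at 0.166; Cavin2, at the top, held 14 of 18 UMIs in 1 cell.

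The named genes for ASF-KO rest on 6 cells. Besides Ccl11, the higher ones were the complement component C7 (201, 1278 and 288 CPM), the calpain subunit Capns1 (169, 818 and 144 CPM), Lamc1 and Clec3b (552, 1841 and 803 CPM). Capns1 was in 5 of 6 ASF-KO fibroblasts, whereas cell 2 held 13 of 25 C7 UMIs, and the C7 log2 ratio of 2.67 was 1.21 without cells carrying other markers. The lower ones were Cd74, Mgp (0.243 (0.177 to 0.326)), Bgn, the ribosomal ubiquitin fusion Fau (0.248 (0.143 to 0.400)) and Tomm7, a subunit of mitochondrial import with 70, 0 and 15 UMIs. The Mgp log2 ratio of -2.04 was -2.73 without cells carrying other markers and -2.71 without the richest cells. WT cell 21 held 156 of 540 WT UMIs of Fau, and without it the ratio was 0.308 (0.178 to 0.500). Fau and Tomm7 also had their lowest level in ASF-KO outside fibroblasts. Fau was at 1162, 509 and 1113 CPM in all other kept barcodes, at 1512, 641 and 1404 in pericyte-like and at 2769.6, 1356 and 2570.0 in endothelial-like ones. Tomm7 was at 224, 89.0 and 178, at 274, 87.4 and 299 and at 293, 124 and 236 CPM. Without 1 cell all 5 higher genes and 4 of the 5 lower ones (all but Cd74) were still called.

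Ribosomal protein genes, a group added after the values were seen, were a smaller share of UMIs in both KO libraries. They made up 21.5%, 10.3% and 14.9% of fibroblast UMIs, and ranged from 3.81% to 45.2%, 3.99% to 18.6% and 3.32% to 39.4% over cells. The medians over cells were 17.31%, 8.498% and 12.14%, in the same order but with WT below its summed share. WT cell 21, the barcode with immune UMIs, held 17673 of the 153879 WT UMIs, and its part in the WT share was not tested. Of 80 measured for ASF-KO, 34 were lower (42.5%, against 5.55% of the 1064 other genes), and 11 for SC35-KO (13.8%, against 4.62% of the 1278 other genes). Pericyte-like barcodes held 9.54%, 4.69% and 8.73% and endothelial-like ones 13.4%, 7.25% and 12.6%, so the ASF-KO share was the lowest in each class. The part of this in the other comparisons was not tested.

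Receptors and signalling genes were mostly not called for SC35-KO, where 11.6% of all measured genes were called. The platelet-derived growth factor receptors Pdgfra and Pdgfrb were at 396, 409 and 391 CPM and 162, 358 and 268 CPM. Of 8 receptor tyrosine kinase and growth factor genes measured, 0 were higher and 0 lower for SC35-KO. For ASF-KO 3 were higher (Fgfr1, Ddr2 and Angptl2) and 2 lower (Gas6 and Angptl4). Angptl4, an inhibitor of lipoprotein lipase, had 37, 0 and 9 UMIs, and Gas6, a ligand of TAM receptors, was at 702, 256 and 844 CPM. Of 7 TGF-beta and BMP genes, the receptor Tgfbr2 was higher for SC35-KO (97.5, 153 and 247 CPM), and of 4 Wnt genes the agonist Rspo3 (58.5, 205 and 247 CPM). On the same lists, Bmpr1a and Sfrp1 were higher for ASF-KO and Nbl1 was lower, with a ratio of 0.106. Nrp1, a co-receptor of semaphorins and VEGF, was higher in both, at 305, 665 and 659 CPM. Without 1 cell none of these higher calls was left: Fgfr1 stood at 1.78 (0.442 to 5.31) and Nrp1 at 0.787 (0.206 to 2.15) for ASF-KO, and Nrp1 at 1.96 (1.17 to 3.21) for SC35-KO. Gas6, Angptl4 and Nbl1 were still lower for ASF-KO.

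Transcription factor and complement genes were not called for SC35-KO, where 11.6% of all measured genes were. Of 8 mesenchymal transcription factors measured, led by Tcf4 (519.9, 460.2 and 844 CPM), Ebf1 (409, 665 and 597 CPM) and Zeb2, 0 were higher and 0 lower. The same held for 9 complement genes, led by the inhibitor Serping1 (2145, 1534 and 2079 CPM) and C3 (1586, 2199 and 1173 CPM). For ASF-KO 1 of 9 was higher, C7. Lipoprotein lipase, Lpl, was at 1072, 869 and 2017 CPM, a SC35-KO ratio of 1.88 (1.45 to 2.43), and 0 of 5 lipid genes were called for SC35-KO.

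Endoplasmic reticulum chaperones had their highest level in ASF-KO, in fibroblasts and outside them. Of 10 chaperone and stress genes, 3 were higher for ASF-KO (Hsp90b1, Hspa5 and Xbp1) and 1 for SC35-KO (Pdia3). Without 1 cell Hsp90b1 and Hspa5 were still called, and Xbp1 and Pdia3 were not. The chaperone Hsp90b1 was at 552, 1483 and 865 CPM in fibroblasts and at 516, 837 and 446 CPM in all other kept barcodes. Hspa5 (BiP) was at 474, 1176 and 865 CPM in fibroblasts and at 521, 1039.6 and 322 CPM in the others. The list summed to 2422, 2816 and 2310.3 CPM in pericyte-like and to 2427, 3067 and 2256 CPM in endothelial-like barcodes.

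Immediate early genes, the first that cells transcribe after a stimulus, rested largely on 1 cell for ASF-KO. Of 14 measured, 4 were higher for ASF-KO (Dusp1, Fosb, Klf4 and Klf6) and Fosb for SC35-KO. ASF-KO cell 5 held 124 of the 206 UMIs of the list, which stood at 10533 CPM with that cell and at 5571 CPM without it. In WT the list stood at 7343 CPM, and at 6501 without its richest cell. In SC35-KO it stood at 7946 CPM, and at 5665 without cell 19, which held 134 of 386 UMIs. Fosb had 5 of 8 ASF-KO UMIs in cell 3. Without 1 cell 0 of the 4 were called for ASF-KO, and Fosb was still higher for SC35-KO, at 2.50 (1.13 to 5.39).

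Metallothioneins, which bind zinc and copper, were lowest in ASF-KO, in fibroblasts and in the other classes given here. Mt1 was at 1365, 153 and 782 CPM in fibroblasts and at 4686, 142 and 1420.0 CPM in all other kept barcodes. It was at 769, 38.8 and 358 CPM in pericyte-like and at 442, 28.2 and 212 CPM in endothelial-like barcodes. Mt2 had 44, 0 and 5 UMIs in fibroblasts. Of 8 heat shock genes, the small chaperone Hspb1 was lower in both KO libraries, with 58, 0 and 7 UMIs, for SC35-KO not without 1 WT cell (0.501 (0.190 to 1.12)). Hspb1 was below WT outside fibroblasts too, at 116, 43.7 and 47.6 CPM in all other kept barcodes and 1580.2, 670.0 and 488 in pericyte-like ones.

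Of 9 islet hormone and granule genes, 5 were higher for SC35-KO (Ins1, Ins2, Iapp, Gcg and Chga) and 4 for ASF-KO (all but Iapp), all but Chga also without 1 cell. The part of such endocrine RNA in the other gene groups was not tested.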

How the data were processed

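The deposited values are UMI counts per gene and barcode, whole numbers with no normalization; Cell Ranger 5.0.0 stands in the file headers, and the submitters' processing notes also name STAR, Seurat and mm10 without a role. The deposited lists of genes and barcodes have no measured unit. Counts were read for 32285 genes and summed over fibroblasts of each library, scaled to 1000000 (CPM). Sums carry exact Poisson intervals, ratios exact conditional binomial and shares Clopper-Pearson intervals, at 95%. A sum of 0 was set to 3 UMIs as a bound, and no ratio was given when both sums were at or under that or the bound crossed 1. A 3′ tag counts a molecule once whatever its length. Doublets were marked with Scrublet (3.13%, 4.31% and 7.58% of kept barcodes) but not removed. The fibroblasts, 41 gene lists and call rules were chosen with earlier results of these data known.

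Named genes were 10 higher and 10 lower for the library labelled SC35-KO and 5 and 5 for the library labelled ASF-KO, ranked by the interval bound nearest to 1 and seen in at least 3 cells. Mitochondrially encoded, ribosomal (Rpl, Rps), sex-linked, hormone and exocrine genes, unnamed models and genes whose CPM elsewhere was over 2 times higher were left out. To them came the 15 genes most concentrated in fibroblasts, the leading and called list members and the 10 most variable among WT cells. Hormone-rich barcodes are kept ones past the hormone limits. Endothelial-like barcodes had Pecam1 and at least 3 of 7 further endothelial genes. Intervals were tested on simulated counts, which leaves them too narrow for a difference between libraries, as said above. A simulated ratio of 4 was called for 90% of genes at the ASF-KO setting and 100% at the SC35-KO setting. A simulated ratio of 0.25 was called for only 36.2% and 72.3%, so a gene not called lower may still be lower. The work used scanpy 1.11.5 for Scrublet, scipy 1.17.1 for intervals, matplotlib 3.10.9, and pandas 2.3.3 with numpy 2.4.6 under python 3.11.15.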

Additional observations from a re-analysis of the deposited data

Results flagged for a closer look

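Barcodes below the cell filter were outside every comparison, yet some of them met the rest of the fibroblast rule: 9 from WT, 1 from ASF-KO and 4 from SC35-KO by label. Each had under 1000 UMIs, with medians of 732, 831 and 958 UMIs. With them the libraries would hold 47, 7 and 26 fibroblasts.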

How the results depend on the processing

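No paired analysis was possible because each genotype has 1 library. For the same reason no replicate could be left out. The share of fibroblasts of kept barcodes labelled SC35-KO was 0.0918% with at least 1000 genes, 2000 UMIs and at most 10% mitochondrially encoded UMIs, in place of 0.188%. The limit of 2000 UMIs lies above the median of SC35-KO fibroblasts (1844) and below those of WT (3486) and ASF-KO (2954). It thus bears unevenly on the libraries, and the share of non-endocrine barcodes under these limits is not given here. The number of genes higher in the library labelled ASF-KO, 81 as reported, was 20 without the cell richest in each gene, 138 with at least 10 UMIs and 27 with at least 50. The number higher in the library labelled SC35-KO, 88 as reported, was 52 without fibroblasts carrying other cells' markers, 39 without the richest cell, 161 with at least 10 UMIs and 25 with at least 50. The number lower there, 70 as reported, was 39 with at least 50 UMIs and 106 past 1.5-fold. The split of higher to lower moved with scaling: for the library labelled SC35-KO to 111 and 55 without hormone, exocrine and mitochondrially encoded genes and to 72 and 77 with a median-of-ratios factor, and for the library labelled ASF-KO from 81 and 93 to 101 and 80 and to 99 and 83. Of the named genes, 11 of 20 for the library labelled SC35-KO and 8 of 10 for the library labelled ASF-KO still passed without fibroblasts carrying other cells' markers. Cd74, H2-Aa, H2-Ab1 and Igkc gave no ratio there. The setting without a cell filter, and the calls without 1 cell of the library with the higher level, were added after the data were seen. Depth limits all of this: 6 cells and 19557 UMIs stand behind the library labelled ASF-KO.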
